A study of Mus musculus with 10 samples.

Results

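The collagen family was followed in medullary thymic epithelial cells (mTECs) with and without the transcription factor Fezf2. Every probe set whose only gene symbol in the platform annotation was Col, a number, the letter a and a number was taken, which gave 82 of 45101 probe sets and 42 collagen genes. A gene was represented by its probe set with the highest mean signal, and 35 of the 42 genes had signals high enough to be tested, of 14087 genes tested on the whole array. The data are 10 Affymetrix arrays, 5 labelled wild type (WT 1 to WT 5) and 5 labelled Fezf2 KO (KO 6 to KO 10). All 10 came from C57BL/6 mice aged 3 weeks, and the thymic cells had been sorted as CD45-, EpCAM+ and CD80hi, a sort meant to take mature mTECs and leave out leukocytes. The comparison asks which collagen genes of these cells differ when Fezf2 is lacking. The labels give neither the deleted part of Fezf2 nor a driver of the deletion, and they do not say whether the arrays came from separate mice. The p-values therefore rest on the spread among these 10 arrays alone, part of which may be technical.

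Collagens are matrix proteins built from 3 chains wound into a triple helix. Fibrillar collagens assemble into the cables of connective tissue, and the FACIT group (fibril-associated collagens with interrupted triple helices) decorates their surface. Type IV collagens form the sheet of basement membranes, type VI forms beaded microfibrils, type VII anchors basement membranes to the tissue below, and transmembrane collagens sit in the cell membrane with their helix outside. In the thymus most interstitial collagen comes from fibroblasts, whereas epithelial cells rest on a basement membrane rich in type IV collagen and laminin. Medullary cells additionally transcribe many genes of other organs for display to developing T cells, and Fezf2 is known as a regulator of part of that display.

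The genotype labels were checked first. Fezf2 signal was 5476 ± 350.0 (SD, n = 5) on WT arrays and 15.04 ± 2.77 on KO arrays, near the lower end of the arrays, a difference of at least 145-fold (adjusted p = 5.29e-15). Epcam and Cd80, which define the sort, were at 7344 and 812 in WT and 7695 and 717 in KO, neither at an adjusted p under 0.05. Aire, a regulator of antigen display in mTECs, was lower in KO cells, at 8791 and 6504 (log2 change -0.45, adjusted p = 0.0282 in limma). With any 1 of WT 3, WT 4 and WT 5 left out, its adjusted p was 0.0616 to 0.0683. Of the 7 mTEC markers tested, 2 were higher and 2 lower (28.6% each), beside 13.0% and 16.2% of all genes. The higher were Cldn4, at 1909 and 2781 (log2 change 0.53, adjusted p = 0.0160 in limma), and Krt5, given below. The lower were Aire and Krt14, the latter also given below, and H2-Aa did not pass the test. Correlations of log2 signals lay between 0.981 and 0.995 within WT, between 0.977 and 0.996 within KO and between 0.951 and 0.974 across genotypes. WT 1 and KO 6 stood apart from the other arrays. Mean signals of the poly-A control transcripts were 883 and 1245 there and 198 to 725 elsewhere, and the 18S rRNA probe read 2151 and 2392 there and 517 to 1162 elsewhere. All 18 collagen calls given below were also made with both arrays left out.

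Fezf2 KO cells had lower signals for 15 of the 35 collagen genes tested, higher signals for 3, and no difference past the threshold for 17. The 15 were Col5a2, Col17a1, Col14a1, Col19a1, Col5a3, Col27a1, Col6a1, Col7a1, Col23a1, Col9a1, Col18a1, Col6a2, Col8a1, Col5a1 and Col20a1, and the 3 were the basement membrane chains Col4a1, Col4a2 and Col4a5. A gene counts as lower or higher at an adjusted p under 0.05 in limma, with Benjamini-Hochberg adjustment over all 14087 genes. In that fit 29.2% of all genes passed the threshold, 16.2% lower and 13.0% higher, against 42.9% and 8.57% of the collagen genes. On 12 collagen genes every KO array lay below every WT array, 34.3% of those tested, against 12.0% of all genes. There was no collagen gene on which every KO array lay above every WT array, against 10.1% of all genes. The median log2 change of the collagen genes was -0.13, with a range from -1.42 to 0.44, beside -0.03 for all genes. In sorted bulk RNA, fewer cells of a type and less RNA per cell cannot be told apart.

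**Figure D1:**
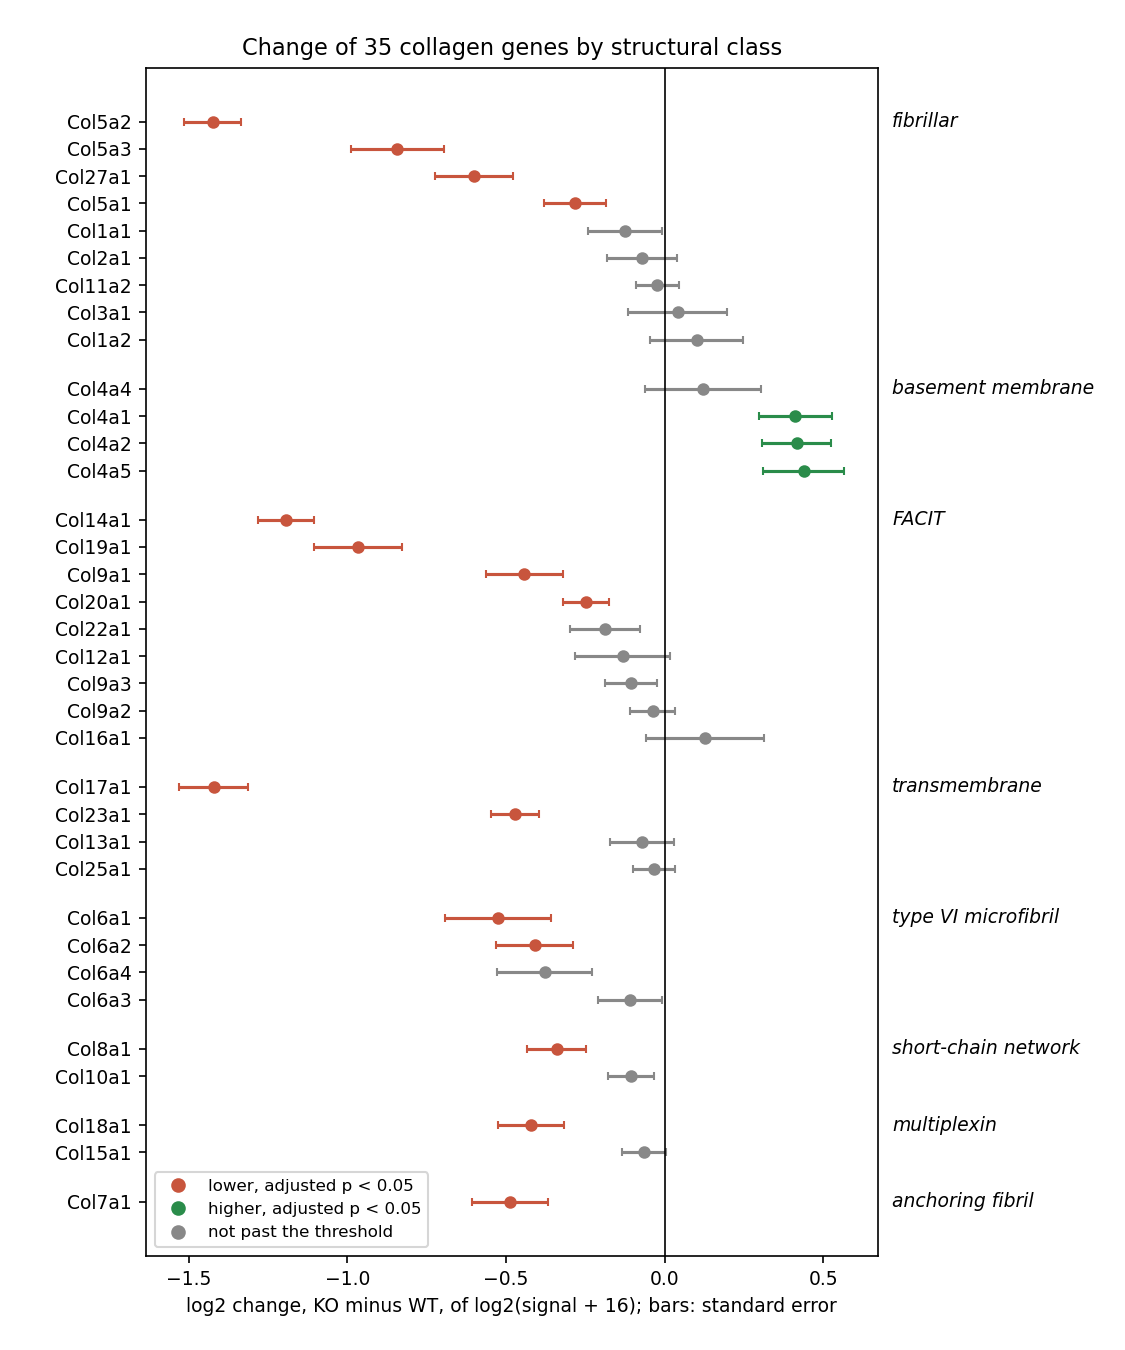
Log2 change (KO minus WT, of log2(signal + 16)) of the 35 collagen genes tested, grouped by structural class, with standard errors as bars. The genes past the threshold in the fibrillar, FACIT, transmembrane, type VI, short-chain, multiplexin and anchoring fibril classes lie to the left of 0, and those of the basement membrane class to the right.

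The calls did not run the same way in all structural classes. Of 9 fibrillar genes tested, 4 were lower, of 9 FACIT genes 4, of 4 transmembrane genes 2 and of 4 type VI genes 2, with no higher gene in any of these classes. Of 4 basement membrane genes tested, all of type IV, 3 were higher and none was lower. Another 2 of type IV, Col4a3 and Col4a6, were not tested. Col18a1 and Col19a1, collagens of basement membrane zones counted in other classes, were lower. The median log2 change was -0.13 for fibrillar, -0.19 for FACIT, -0.27 for transmembrane, -0.39 for type VI and 0.41 for basement membrane genes. These medians describe the genes named and were not tested against each other.

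Among fibrillar collagens the type V chains were lower in KO cells and the chains of types I and III showed no difference past the threshold. Type V collagen sits inside type I fibrils and limits their diameter, and its 3 chains are encoded by Col5a1, Col5a2 and Col5a3. Col5a2 signals were 785, 697, 577, 691 and 641 on WT 1 to WT 5 and 277, 214, 222, 249 and 251 on KO 6 to KO 10. The groups lay far apart, with every KO array at less than the lowest WT array. The means were 678 ± 76.4 and 243 ± 25.0, a log2 change of -1.42 (SE 0.09, adjusted p = 6.47e-07, 2.68-fold lower on the log2(signal + 16) scale). A second probe set of Col5a2, dimmer at 94.97 in WT and 32.0 in KO, gave -1.21. Col5a3 signals were 164, 226, 180.4, 219 and 222 in WT and 67.3, 114, 126, 128 and 101 in KO, so that the groups again did not overlap. The change was -0.84 (SE 0.15, adjusted p = 0.00106), from 202 ± 28.2 to 107 ± 24.8, and KO 6 had the lowest signal.

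Col5a1, whose chain is part of nearly all type V molecules, had the smallest change of the 3 chains. Its signals were 518, 705, 579, 619.6 and 597 in WT and 398, 490.2, 505, 516 and 560.1 in KO, and WT 1 lay within the KO range. The change was -0.28 (SE 0.10, adjusted p = 0.0460, exact two-sided permutation p = 0.0159), close to the threshold. The call was lost when any 1 of 8 of the 10 arrays was left out, all but WT 1 and KO 10, with changes from -0.30 to -0.21 and adjusted p between 0.0623 and 0.105. Its other probe sets gave -0.41 and -0.08. Col27a1, a fibrillar collagen known from cartilage, had signals of 591, 556, 614, 626 and 671 in WT and 276, 448, 403, 407 and 485 in KO, with all KO arrays below all WT arrays. The means were 612 ± 42.6 and 404 ± 79.0, a change of -0.60 (SE 0.12, adjusted p = 0.00310). A dimmer Col27a1 probe set gave -0.56, with an adjusted p of 0.0620 over all probe sets kept.

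The 250 bases before and 50 after the transcript start of Col5a3 are shown because it had the largest change among the fibrillar genes matched in the RefSeq promoter table of GRCm38.p6. The window is chr9:20815018-20815317 on the minus strand, and capitals mark matches to the CCAAT box and the GC box on either strand.
Col5a3: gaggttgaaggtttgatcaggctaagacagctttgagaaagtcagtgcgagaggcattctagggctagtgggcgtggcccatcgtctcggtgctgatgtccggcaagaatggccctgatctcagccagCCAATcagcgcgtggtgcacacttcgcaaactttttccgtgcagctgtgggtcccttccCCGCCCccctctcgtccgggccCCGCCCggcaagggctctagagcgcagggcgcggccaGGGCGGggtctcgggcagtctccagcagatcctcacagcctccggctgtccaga
A CCAAT match began 122 bases before the start and GC box matches (GGGCGG, or CCGCCC on the other strand) 63, 41 and 4 bases before it. Of 32851 mouse promoters in the table, 37.4% held a CCAAT or its reverse complement ATTGG and 35.7% a GC box. Among the collagen genes, 33 of 42 were matched, with 36 windows, of which 13 held a CCAAT box and 22 a GC box. In the 16 windows of genes lower in KO cells, 5 held a CCAAT box and 9 a GC box. A match is a description of the letters and not a binding site.

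**Figure D2:**
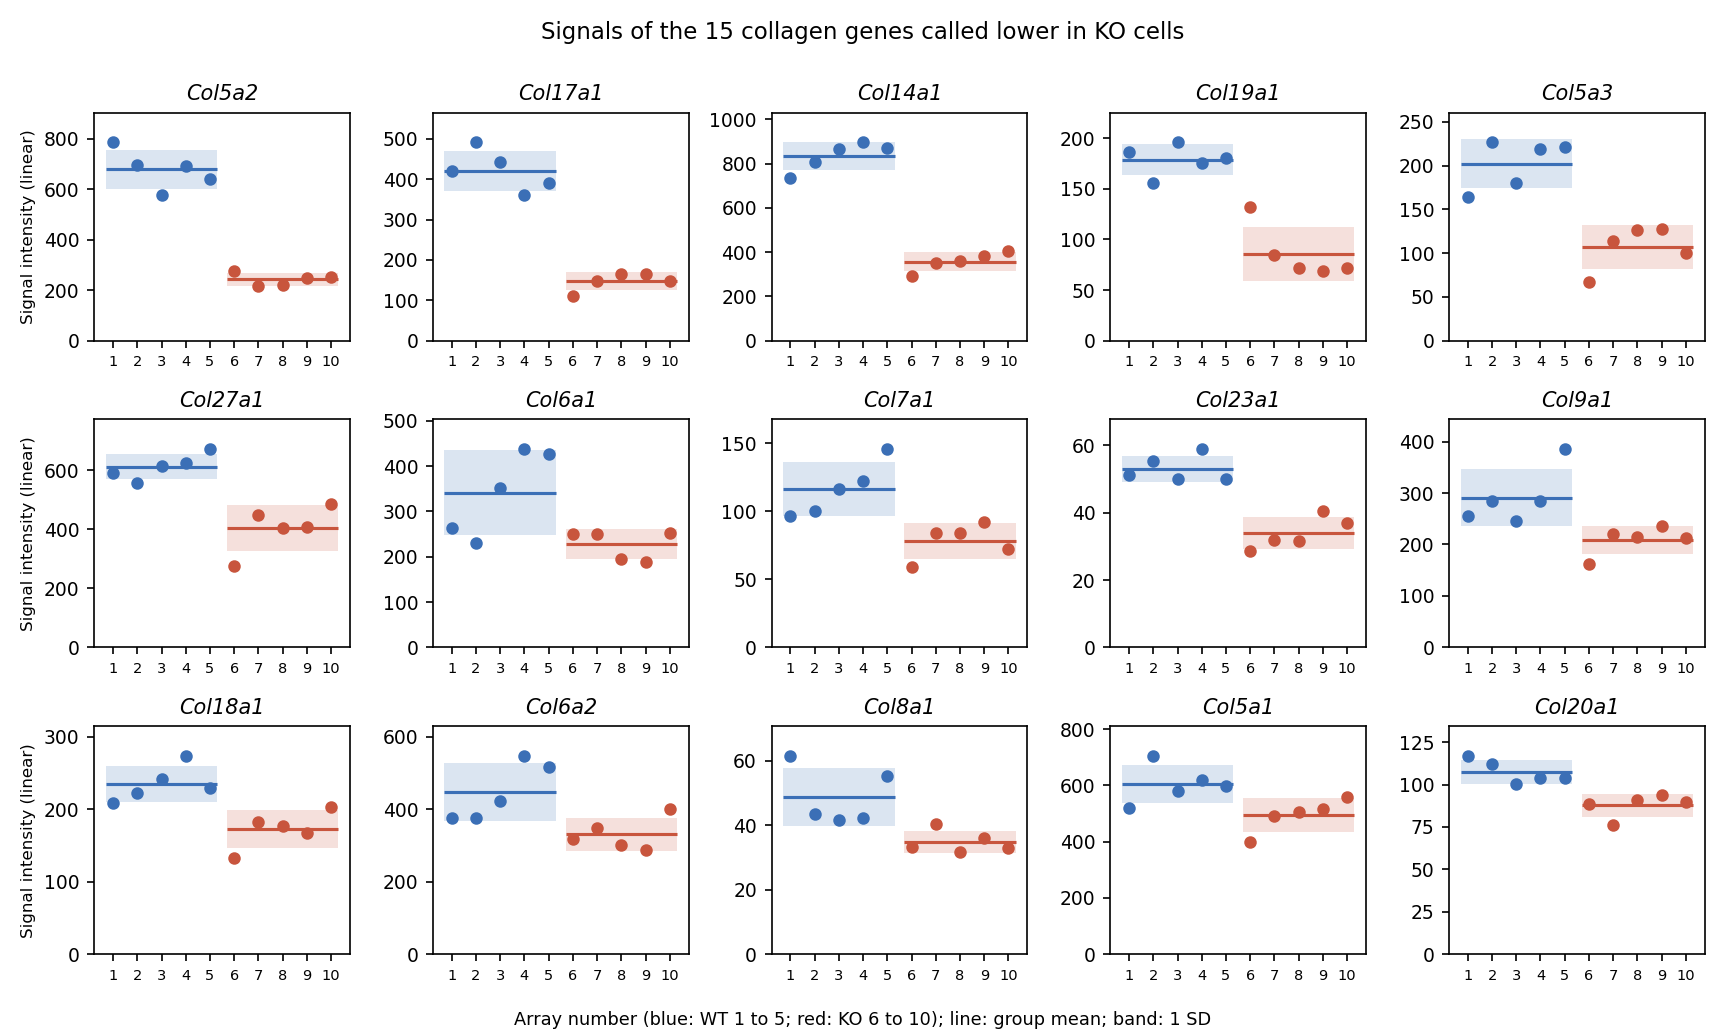
Signal intensity (linear, y axis) by array number (x axis, blue WT 1 to 5, red KO 6 to 10) of the 15 collagen genes called lower in KO cells, with group means as lines and 1 SD as bands. For 12 genes all KO arrays lie below all WT arrays, and for Col6a1, Col6a2 and Col5a1 the groups overlap.

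The main fibril chains of connective tissue were not past the threshold, and their difference from type V was not tested. Col1a2, the second chain of type I collagen, had signals of 399, 458, 665, 593 and 403 in WT and 658, 506, 499, 445 and 562 in KO, a log2 change of 0.10 (adjusted p = 0.650). Col3a1, the single chain of type III collagen, gave 454, 471, 683, 492 and 355 in WT and 604, 449.8, 443, 415 and 593 in KO, a change of 0.04 (adjusted p = 0.873). Col1a1, the major type I chain, was at 137 ± 27.4 in WT and 123 ± 12.9 in KO, a change of -0.13 that was the largest among fibrillar genes not past the threshold (adjusted p = 0.455). WT 3 was the highest WT array for all 3 genes, and the genotypes overlapped throughout. The cartilage collagens Col2a1 and Col11a2 were at 76.5 ± 10.2 and 37.6 ± 3.29 in WT, with changes of -0.07 and -0.02 that did not pass the test.

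Fibroblast markers were measured beside them. Of 8 markers tested, Lum (lumican, a fibril-binding proteoglycan) and Dcn (decorin) were higher and Mfap5 lower in KO cells. That was 25% higher and 12.5% lower, beside 13.0% and 16.2% of all genes. The Dcn change of 0.30 was not past the threshold without WT 2, WT 3 or WT 4 (0.27 to 0.31, adjusted p 0.0524 to 0.0638), and Pdgfra, a defining fibroblast receptor, was at 36.4 ± 7.33 in WT and 41.6 ± 12.4 in KO. The summed fibroblast signal ran from 1812 to 1888 in WT and from 2079 to 2396 in KO, without overlap. Dcn made up 54.4% and 56.5% of it and 66.9% of the difference in means, and without Dcn the sums overlapped, at 775 to 910.4 in WT and 806 to 1087 in KO. All 8 markers passed the filter on low signals. The part of fibroblast RNA in the collagen signals was not tested.

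**Figure D3:**
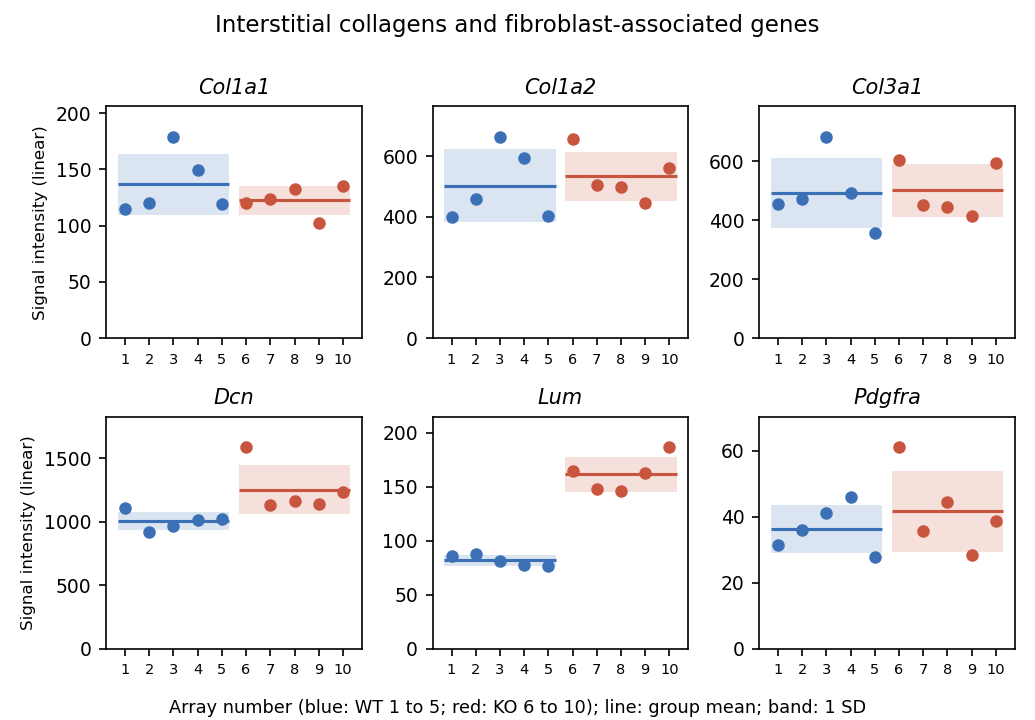
Signal intensity (linear, y axis) by array number (x axis) of Col1a1, Col1a2 and Col3a1 and of the fibroblast-associated genes Dcn, Lum and Pdgfra, with group means as lines and 1 SD as bands. The genotypes overlap for the 3 collagens and for Pdgfra, whereas all KO arrays lie above all WT arrays for Dcn and Lum. Not shown are the fibroblast marker Mfap5, which was lower in KO cells, and Fbln1, Pi16, Dpt and Thy1, which did not pass the test.

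FACIT collagens were lower or not past the threshold. Col14a1, which binds to fibril surfaces and is known from skin and tendon, had signals of 736, 808, 867, 896 and 871 in WT and 290.3, 349, 360.3, 381 and 407 in KO. The lowest WT array was far above the highest KO array, and the means of 835 ± 64.3 and 357 ± 43.5 gave a log2 change of -1.19 (SE 0.09, adjusted p = 1.89e-06, 2.29-fold lower). A second probe set of Col14a1 gave -0.86. Col19a1, a rare collagen of basement membrane zones, was at 187, 155, 196, 176 and 181 in WT and 132, 84.6, 71.7, 68.9 and 72.1 in KO. Here KO 6 was the highest KO array and still below the lowest WT array. The change was -0.97 (SE 0.14, adjusted p = 0.000279), and the second Col19a1 probe set gave -0.82.

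Col9a1, a chain of the cartilage fibril collagen type IX, had signals of 255, 284, 245, 285 and 385 in WT and 163, 219.8, 215, 235 and 212 in KO, with WT 5 the highest and KO 6 the lowest. All KO arrays were below all WT arrays, with a change of -0.44 (SE 0.12, adjusted p = 0.0166), but a dimmer probe set gave -0.25 with an adjusted p of 0.103. The other type IX chains, Col9a2 at 24.2 ± 3.00 and Col9a3 at 48.0 ± 6.21 in WT, gave log2 differences of -0.04 and -0.11 that did not pass the test. Type IX molecules combine all 3 chains, and the Col9a2 signals lay near the filter. Of 4 chondrocyte markers tested Acan was lower (25%, beside 16.2% of all genes) and the other 3 did not pass the test. The 4 summed to 812 to 967 in WT and 820.0 to 998 in KO.

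Col20a1 showed a small difference, with signals of 117, 112, 100.2, 104 and 104 in WT and 88.6, 76.3, 91.0, 93.8 and 89.8 in KO. The groups did not overlap and the change was -0.25 (SE 0.07, adjusted p = 0.0209), but without KO 7, the lowest array, it was -0.21 with an adjusted p of 0.0572. This probe set bears a suffix for shared sequence. Without such probe sets a dimmer one stood for Col20a1, and the call was lost (-0.13, adjusted p = 0.292). The 3 dimmer Col20a1 probe sets gave -0.13, -0.29 and -0.24, of which only the second passed the test. Col22a1, a collagen of tissue junctions, had the largest change of the FACIT genes not past the threshold, -0.19 (adjusted p = 0.224), from 150.1 ± 5.76 to 132 ± 26.4. Its WT arrays were tightly grouped and its KO arrays ran from 97.9 to 171, on both sides of them. A dimmer Col22a1 probe set, 95.7 in WT and 76.5 in KO, gave -0.28 with an adjusted p of 0.0311, so that the probe sets of this gene disagreed in call. Col12a1 and Col16a1, at 299 ± 43.3 and 222 ± 61.8 in WT, gave log2 differences of -0.13 and 0.13 that did not pass the test.

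Of the transmembrane collagens, Col17a1 and Col23a1 were lower in KO cells. Col17a1 encodes the hemidesmosomal collagen that ties basal epithelial cells to the basement membrane. Its signals were 420.4, 491, 443, 359.9 and 389 in WT and 112, 147, 166, 166 and 148 in KO. The groups were widely separated, with means of 421 ± 50.3 and 148 ± 22.1, a log2 change of -1.42 (SE 0.11, adjusted p = 2.52e-06, 2.68-fold lower). Together with Col5a2 this was the largest change in the family, and it rests on 1 probe set. Col23a1 was dim, at 51.2, 55.2, 50.1, 58.9 and 49.9 in WT and 28.7, 31.9, 31.6, 40.5 and 36.8 in KO, and changed by -0.47 (SE 0.07, adjusted p = 0.000540) with no overlap. Col13a1 and Col25a1 were at 42.5 ± 4.25 and 39.9 ± 3.12 in WT and 40.1 ± 9.24 and 38.6 ± 3.56 in KO, log2 differences of -0.07 and -0.03 that did not pass the test.

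The promoter window of Col17a1, chr19:47691993-47692292 on the minus strand of GRCm38.p6, is shown as that of the most changed collagen gene matched in that table. Capitals mark CCAAT box and TATA box (TATAAA, or TTTATA on the other strand) matches.
Col17a1: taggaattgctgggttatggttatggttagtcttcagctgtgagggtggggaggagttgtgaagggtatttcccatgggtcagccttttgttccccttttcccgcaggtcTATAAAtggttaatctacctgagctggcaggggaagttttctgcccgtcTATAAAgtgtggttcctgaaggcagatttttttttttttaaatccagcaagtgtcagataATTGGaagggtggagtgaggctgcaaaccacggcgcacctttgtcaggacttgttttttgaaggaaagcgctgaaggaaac
The window held an ATTGG 31 bases before the start and TATAAA matches 140 and 91 bases before it, and no GC box. TATA box letters stood in 13.6% of all promoters of the table and in 5 of the 36 collagen windows.

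Other genes of the hemidesmosome were read beside Col17a1. Of 11 tested, 2 were lower and 2 higher (18.2% each), near the 16.2% and 13.0% of all genes, with a median log2 change of -0.09 beside the -0.03 of all genes. Itga6 and Itgb4, the integrin that binds laminin there, gave log2 differences of 0.07 and -0.28, and the linker proteins Dst and Plec -0.09 and -0.03, none past the threshold. Among the basal keratins, Krt5 was higher (log2 change 0.71, adjusted p = 0.00263, 1792 ± 415 in WT and 2879 ± 291 in KO) and Krt15 lower (-0.61, adjusted p = 0.00467). Krt14 was lower (-0.42, adjusted p = 0.0436), but not when any 1 of WT 3 to WT 5 or KO 6 to KO 9 was left out (-0.43 to -0.34, adjusted p 0.0621 to 0.108). Cd151, a tetraspanin bound to that integrin, was higher (0.20, adjusted p = 0.0487). Of the fits without 1 array, the call held only without WT 3 or KO 6 (otherwise 0.15 to 0.23, adjusted p 0.0535 to 0.106). The Cd151 call was also lost with quantile normalization, without the filter, and with eBayes run without the variance trend and robust option. Col7a1, the anchoring fibril collagen that reaches from the basement membrane into the stroma, had signals of 96.5, 100.03, 116, 122 and 145 in WT and 58.7, 84.0, 83.9, 92.2 and 72.0 in KO. The lowest WT array was only slightly above the highest KO array, and the change was -0.49 (SE 0.12, adjusted p = 0.00935) on a single probe set.

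Type VI collagen forms microfibrils close to cells from the chains Col6a1, Col6a2 and a further chain. Col6a1 signals were 264, 231, 351, 437 and 426 in WT and 251, 251, 194, 188 and 253 in KO. WT 4 and WT 5 were the highest arrays, and WT 2 lay within the KO range. The change was -0.53 (SE 0.17, adjusted p = 0.0333, exact two-sided permutation p = 0.0556). Col6a2 followed the same arrays, with 376, 377, 424, 548 and 516 in WT and 318, 349, 302, 287 and 402 in KO, and changed by -0.41 (SE 0.12, adjusted p = 0.0228). Both calls depended on single arrays. Col6a1 was not past the threshold without WT 3, WT 4, WT 5, KO 8 or KO 9 (-0.51 to -0.43, adjusted p 0.0662 to 0.0846), and Col6a2 not without WT 4, WT 5, KO 8 or KO 9 (-0.38 to -0.34, adjusted p 0.0575 to 0.0588). Col6a3, which usually completes them, gave a log2 difference of -0.11 (adjusted p = 0.450), and Col6a4 one of -0.38 (adjusted p = 0.0766), from 185 ± 24.9 to 141 ± 32.5, the largest in this class that did not pass.

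Pericyte and smooth muscle markers, cells known to make type VI collagen, were read beside these values. Of 7 tested, Acta2 and Cspg4 were lower (28.6%, beside 16.2% of all genes) and none was higher, beside 13.0% of all genes. The median log2 change was -0.25, beside -0.03 for all genes, with negative values for 6, all but Rgs5. The Cspg4 call was lost with the mean of its probe sets (adjusted p = 0.0846). Summed signals were 6610 to 8188 in WT and 5714 to 7986 in KO, of which Rgs5 made up 61.1% and 67.3%, and without Rgs5 they were 2322 to 3526 and 1970.2 to 2626. Pdgfrb was at 498 ± 47.1 in WT and 399 ± 73.7 in KO (-0.33, adjusted p = 0.0578). Their part in the type VI signals was not tested.

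The short-chain and multiplexin classes held 1 lower gene each. Col8a1, of the short-chain network collagens known from vessels and the cornea, was dim at 61.5, 43.4, 41.6, 42.2 and 55.3 in WT and 33.4, 40.4, 31.7, 36.1 and 33.0 in KO. WT 1 and WT 5 were the highest, all KO arrays were lower than all WT arrays, and the change was -0.34 (SE 0.09, adjusted p = 0.0152). Col10a1, the collagen of growing cartilage, was near the filter at 27.1 ± 3.23 in WT and 24.1 ± 3.32 in KO, a log2 difference of -0.11 (adjusted p = 0.307). Of the multiplexins, the proteoglycan collagens of basement membrane zones, Col18a1 had signals of 208, 223, 241, 274 and 229 in WT and 132, 183, 178, 167 and 203 in KO, with no overlap and a change of -0.42 (SE 0.10, adjusted p = 0.00959). A second Col18a1 probe set gave -0.48. Col15a1 was at 72.6 ± 3.20 and 68.8 ± 6.38, a log2 difference of -0.06 (adjusted p = 0.523).

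The basement membrane chains of type IV were the collagen genes that were higher in KO cells. Col4a1 and Col4a2, which together form the common network of all basement membranes, are transcribed in opposite directions. Col4a1 signals were 1144, 1311, 1299, 1188 and 1164 in WT and 1151, 1813, 1819.5, 1721 and 1743 in KO. KO 7 to KO 10 lay above all WT arrays and KO 6 lay within the WT range. The means were 1221 ± 78.4 and 1649.6 ± 282, a log2 change of 0.41 (SE 0.11, adjusted p = 0.0172, exact two-sided permutation p = 0.0397). Col4a2 showed the same array pattern, with 406, 482, 543, 526 and 480.2 in WT and 495, 716, 702, 664 and 717 in KO, and a change of 0.42 (SE 0.11, adjusted p = 0.0126, exact permutation p = 0.0238). Without KO 6 the changes were 0.53 (adjusted p = 4.59e-05) and 0.51 (adjusted p = 5.61e-04). The probe sets of Col4a1 disagreed, since the dimmer one, 297 in WT and 335 in KO, gave 0.14, and the mean of both gave 0.28 with an adjusted p of 0.104.

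Col4a5, a chain of the specialised network of kidney and other epithelial basement membranes, had signals of 63.98, 39.8, 69.7, 75.8 and 67.2 in WT and 96.5, 87.1, 101, 73.4 and 93.6 in KO. WT 2 was far below the other WT arrays, and KO 9 lay within the WT range. The change was 0.44 (SE 0.13, adjusted p = 0.0224, exact two-sided permutation p = 0.0159), and without KO 8 it was 0.40 with an adjusted p of 0.0572. A dimmer Col4a5 probe set gave 0.14. Col4a4, a partner of Col4a5 in that network, was at 94.3, 70.3, 59.4, 72.2 and 63.7 in WT and 144, 62.7, 64.2, 77.2 and 65.1 in KO. Its change of 0.12 did not pass the test (adjusted p = 0.665), and the highest arrays were KO 6, at 144, and WT 1, at 94.3.

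Promoter windows of the 3 higher genes are shown because these genes changed in the same direction and a pair of them starts from one short stretch. They are chr8:11312777-11313076 (minus strand), chr8:11312555-11312854 (plus strand) and chrX:141475169-141475468 (plus strand), from RefSeq on GRCm38.p6, with CCAAT box and GC box matches in capitals.
Col4a1: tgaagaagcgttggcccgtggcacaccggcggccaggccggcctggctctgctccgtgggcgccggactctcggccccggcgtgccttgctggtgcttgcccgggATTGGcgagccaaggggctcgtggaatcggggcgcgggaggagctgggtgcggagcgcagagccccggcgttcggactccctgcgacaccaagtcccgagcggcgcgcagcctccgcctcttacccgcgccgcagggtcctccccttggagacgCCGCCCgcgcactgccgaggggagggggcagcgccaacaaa
Col4a2: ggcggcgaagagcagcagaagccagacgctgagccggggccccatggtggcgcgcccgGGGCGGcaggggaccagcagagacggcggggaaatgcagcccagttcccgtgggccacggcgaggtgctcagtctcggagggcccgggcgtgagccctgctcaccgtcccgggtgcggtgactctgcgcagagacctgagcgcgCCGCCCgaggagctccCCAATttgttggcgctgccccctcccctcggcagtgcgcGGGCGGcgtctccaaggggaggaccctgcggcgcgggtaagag
Col4a5: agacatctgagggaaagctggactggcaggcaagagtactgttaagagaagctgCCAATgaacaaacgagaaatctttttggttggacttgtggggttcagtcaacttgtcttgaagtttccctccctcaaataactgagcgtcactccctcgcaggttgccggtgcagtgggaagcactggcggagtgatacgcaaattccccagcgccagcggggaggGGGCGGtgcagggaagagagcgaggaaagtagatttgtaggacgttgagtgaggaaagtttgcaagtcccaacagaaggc
The annotated starts of Col4a1 and Col4a2 lay 21 bases apart on opposite strands, each inside the other gene's transcript, and their windows shared 78 bases. All 3 windows held a CCAAT box and a GC box on one strand or the other, and none held a TATA box. With 3 windows and the shares of 37.4% and 35.7% over all promoters, this describes these sequences only.

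Endothelial cells also make type IV collagen, and their markers were read on the same arrays. Above the 40th percentile on all arrays there were 5 endothelial markers. Of these, Cdh5 and Kdr were higher in KO cells (log2 changes 0.79 and 0.75), beside 13.0% higher of all genes. Tek, Plvap and Esam did not pass the test. Pecam1 and Emcn lay above that percentile on 1 of 5 WT arrays and on 5 of 5 KO arrays. They entered the test through the KO arrays, so their values are given as a description only. Pecam1 was at 38.1, 20.4, 20.9, 19.6 and 15.8 in WT and 46.5, 40.7, 48.2, 42.3 and 37.8 in KO, and Emcn at 28.5, 19.5, 12.8, 12.7 and 12.9 and 34.2, 25.2, 35.2, 34.99 and 40.3. With Pecam1 and Emcn included, the 7 markers summed to 539 to 916 in WT and 869 to 1029 in KO, likewise a description only. Values of WT 1 and KO 6, the arrays set apart by their control signals, are given separately. Cdh5 was at 73.8 on WT 1 and 60.8 on KO 6. On the other arrays Cdh5 was at 22.1 to 47.1 in WT and 62.5 to 97.8 in KO. Kdr was at 94.9 on WT 1 and 79.8 on KO 6. On the other arrays Kdr was at 40.5 to 74.0 in WT and 109 to 125 in KO. Col4a1 and Col4a2 signals were the lowest of the WT arrays on WT 1, and on KO 6 they lay in the WT range. The part of endothelial RNA in the type IV signals was not tested.

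**Figure D4:**
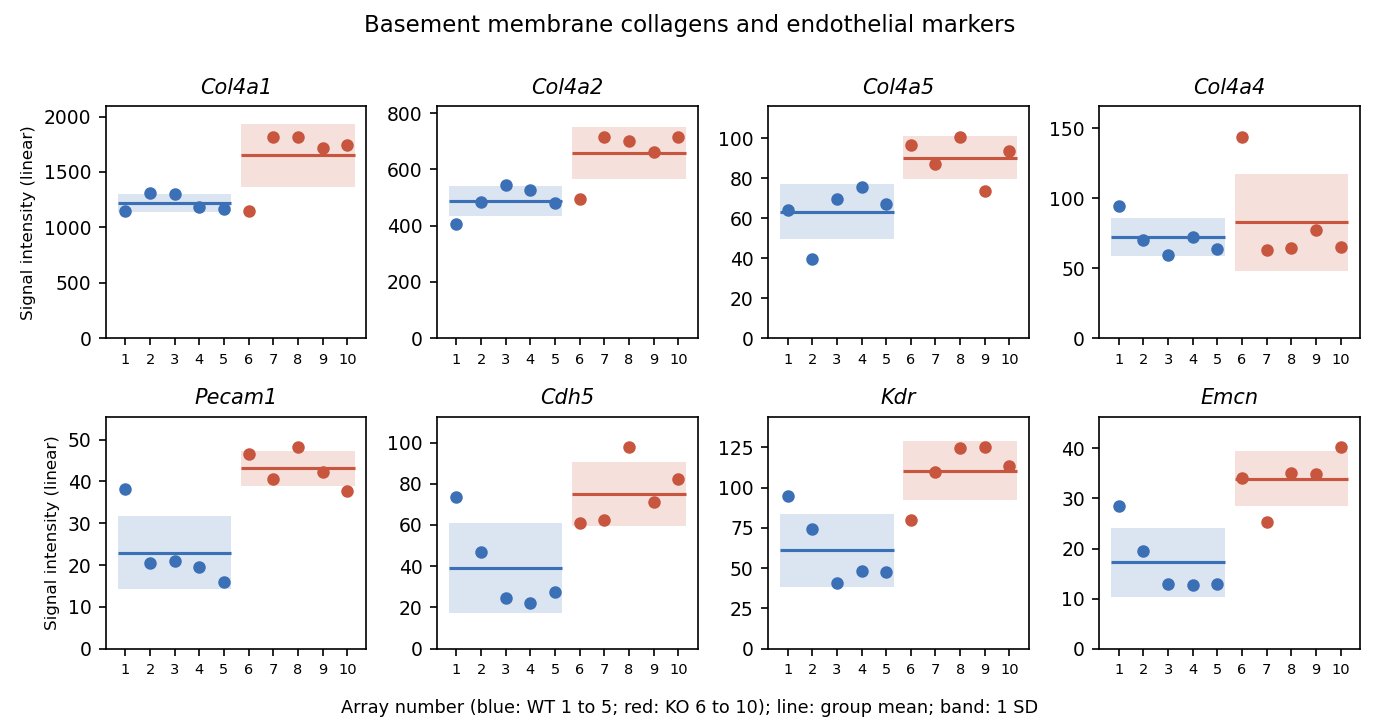
Signal intensity (linear, y axis) by array number (x axis) of the type IV genes Col4a1, Col4a2, Col4a5 and Col4a4 and of the endothelial markers Pecam1, Cdh5, Kdr and Emcn, with group means as lines and 1 SD as bands. KO 6 lies in the WT range for Col4a1 and Col4a2, and WT 1 lies within the KO range for the 4 endothelial markers. Pecam1 and Emcn entered the test through the KO arrays. Not shown are the endothelial markers Tek, Plvap and Esam, which did not pass the test.

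The 7 collagen genes not tested were Col11a1, Col24a1, Col4a3, Col4a6, Col6a5, Col8a2 and Col26a1. Their mean signals were between 8.12 and 22.5 in either group, below or near the 40th percentile of each array, and no difference is claimed for them. Without the filter, Col11a1, Col24a1, Col4a3 and Col6a5 passed the threshold with lower KO signals. The brightest of them, Col11a1, read 16.7, 21.6, 22.0, 26.9 and 25.3 in WT and 12.0, 10.9, 17.6, 15.5 and 13.2 in KO, where only 3 WT arrays and no KO array exceeded the 40th percentile. All 35 genes tested passed the filter in both groups, and 33 of them on all 10 arrays.

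Genes that build, join and break down collagen were read next. Of 10 processing and cross-linking genes tested, 5 were lower and none higher in KO cells, with a median log2 change of -0.40, beside 16.2% of all genes lower. They were Tgm2, a transglutaminase (1389 ± 136 in WT and 807 ± 54.2 in KO, change -0.77, adjusted p = 1.78e-05), and Pxdn, the peroxidase that forms the sulfilimine bonds of type IV collagen (655 ± 142 and 306 ± 72.7, change -1.06, adjusted p = 0.000995). The lysyl oxidase relatives that cross-link fibrils, Loxl3 and Loxl4, each changed by -0.68 (adjusted p = 0.000287 and 0.00101), and Pcolce2, an enhancer of procollagen cleavage, by -0.55 (adjusted p = 0.0135). Summed signals of the 10 genes were 2924 to 3560.2 in WT and 2019 to 2087 in KO, with no overlap. Lox itself was at 129 ± 45.6 and 137 ± 26.6 and did not pass the test.

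Of 18 folding and modification genes, 3 were lower (16.7%), close to the 16.2% of all genes, and 6 higher (33.3%, beside 13.0%), with a median of 0.06. P4ha3, an alpha subunit of prolyl 4-hydroxylase, had signals of 22.5, 20.2, 25.7, 24.6 and 22.4 in WT and 64.1, 78.5, 72.5, 84.9 and 83.6 in KO, with all KO arrays far above all WT arrays, whose signals lay near the filter. Its change was 1.24 (SE 0.08, adjusted p = 4.38e-07). P4ha2, another alpha subunit, moved the other way, at 253, 262, 297, 258 and 247 in WT and 183, 152, 136, 171 and 172 in KO, a change of -0.65 (adjusted p = 0.000133), and P4ha1 gave -0.01, not past the threshold. P3h2, a prolyl 3-hydroxylase acting on type IV collagen, was lower (-0.66, adjusted p = 0.000178), and Fkbp14, a prolyl isomerase, was higher (0.44, adjusted p = 0.000859). The collagen chaperone Serpinh1 was at 325 ± 41.5 in WT and 352 ± 90.2 in KO, a log2 difference of 0.08 that did not pass the test.

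Of 16 breakdown genes, 4 were higher and none lower, beside 13.0% higher and 16.2% lower of all genes. Plau, the urokinase that activates plasminogen, rose from 99.3 ± 22.0 to 219 ± 38.5 (change 1.04, adjusted p = 0.000151), and Timp2, an inhibitor of metalloproteinases, from 601 ± 69.8 to 868 ± 121 (0.51, adjusted p = 0.00231). Fap, a fibroblast protease, was higher (0.50, adjusted p = 0.0175). Mmp2, a metalloproteinase that cleaves type IV collagen, was higher (0.31, adjusted p = 0.0337), but not when any 1 of WT 2 to WT 5, KO 7 or KO 8 was left out (0.23 to 0.32, adjusted p 0.0518 to 0.0830). Of 6 collagen receptors, Itgb1 was higher (0.39, adjusted p = 0.0189), a call lost with WT 1 and KO 6 left out (adjusted p = 0.0575), and the other 5, among them Itga1, Itga2, Ddr1 and Ddr2, did not pass the test, so that 16.7% were higher beside 13.0% of all genes. Of 15 proteins that bind collagen in the matrix, 5 were higher (33.3%, beside 13.0% of all genes) and 3 lower (20%), the latter near the 16.2% of all genes. Dcn among the higher lost its call in 3 of the 10 fits without 1 array, and Nid2 among the lower in 8, all but those without WT 3 or KO 10 (otherwise adjusted p 0.0630 to 0.109). The Nid2 call was also lost with quantile normalization, median centring or no filter, and with both WT 1 and KO 6 left out. Postn (periostin) had the largest rise of this list, 1.00 (adjusted p = 0.0166), from 272 ± 81.8 to 585 ± 277, and KO 6 was highest at 1022. Lum rose by 0.86 (adjusted p = 8.14e-06), Bgn (biglycan) by 0.48 and Sparc, a binder of type IV and fibrillar collagens, by 0.43. Fn1 (fibronectin) fell from 1153 ± 238 to 575 ± 73.1 (-0.97, adjusted p = 0.000210). Fibronectin is known to guide the assembly of fibrillar collagens, and its signals on KO arrays did not overlap those on WT arrays.

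**Figure D5:**
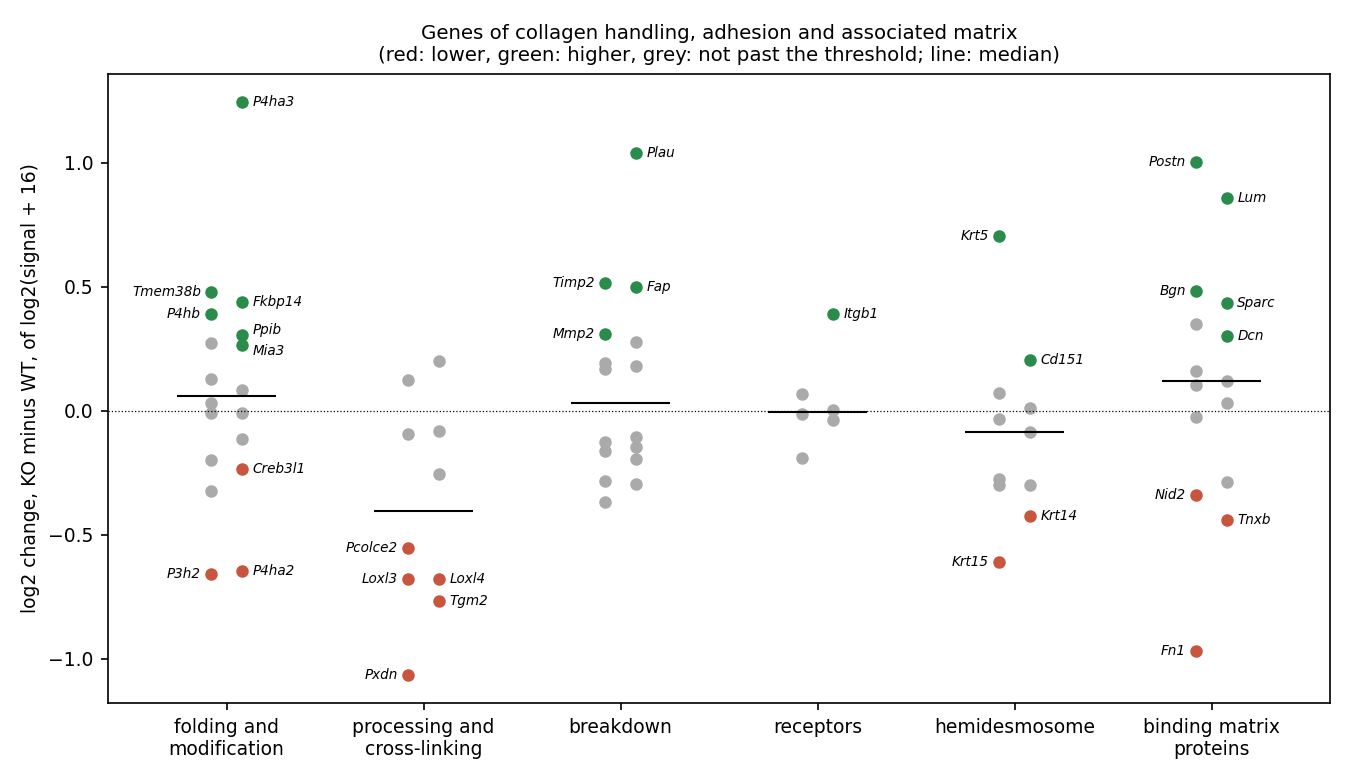
Log2 change (KO minus WT, of log2(signal + 16), y axis) of genes of collagen folding, processing, breakdown, reception, hemidesmosomes and collagen-binding matrix (x axis), with a line at each list's median and names on genes past the threshold. In the processing and cross-linking list the 5 named genes lie below 0, and in the breakdown list the 4 named genes lie above it.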

How the data were processed

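Biotin-labelled RNA of 10 sorted mTEC samples was hybridised to Affymetrix arrays, per the labels. What the authors deposited is a linear intensity for each probe set, made with MAS5 per the submitters' processing notes. A version or scaling target is not given in the sources used here. Platform annotation gave 1 symbol for 34958 of 45101 probe sets, several for 932 and none for 9211, and 34754 were matched to RefSeq genes of GRCm38.p6.

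Probe sets above the 40th percentile of their array on at least 5 of 10 arrays were kept (23581 with 1 gene), and the brightest stood for each of 14087 genes. Signals were analysed as log2(signal + 16) in R 4.3.3 by limma 3.58.1 (lmFit and robust eBayes with a variance trend), KO minus WT, without further normalization or covariates, and adjusted by Benjamini-Hochberg. Log2 changes on this scale understate differences of dim genes. Levels are means ± SD over 5 arrays. An exact two-sided permutation test over arrays was run for single genes, and its smallest possible p is 0.00794. It was reached by Fezf2 and by the 12 lower collagen genes without overlap. Col24a1, Col4a3 and Col6a5, whose signals lay below the filter, reached it too. The procedure was tested on simulated data. The bound for Fezf2 sets the WT mean against the 40th percentile of the KO arrays on the same log2 scale. For arrays, their number limits the precision.

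All collagen genes were accounted for. Named in full were those past the threshold and the largest change not past it in each class, with up to 4 genes per companion list by smallest adjusted p. Pcolce2 and other list genes named beyond these were chosen after their values were seen. Members, classes and lists were chosen with earlier results of these data known. No genome of the arrays' design was used. The alternatives are those of the closing section.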

Additional observations from a re-analysis of the deposited data

Results flagged for a closer look

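In 6 of 70 groups of 5 arrays examined, 1 array lay far from the other 4, at a gap that chance gives in about 1 of 20 groups. KO 6 was low among KO arrays for Col4a1, at 1151 against 1721 to 1820, for Col4a2, at 495 against 664 to 717, and for Col9a1, at 163 against 212 to 235. For Col4a4 it was high, at 144 against 62.7 to 77.2. KO 6 therefore accounts for 4 of the 6 values, and it is also the array with the highest spike-in and 18S rRNA signals. KO 7 was low for Col20a1, at 76.3 against 88.6 to 93.8, and without it the Col20a1 call was lost. WT 2 was low for Col4a5, at 39.8 against 63.98 to 75.8 on the other WT arrays. The part of array quality in these values was not tested.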

How the results depend on the processing

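Over 24 alternatives, of which 10 left out 1 array each, no collagen gene past the threshold changed direction. At an adjusted p of 0.01 in place of 0.05, 9 collagen genes were lower and 0 higher (3 at 0.05 with limma), against 1313 lower and 1160 higher over all genes. With the filter at the 60th percentile, which left 27 collagen genes, the median log2 change was -0.25. With 1 array left out, between 12 and 16 collagen genes were lower and 2 to 3 higher, the median was -0.19 to -0.12, 1824 to 2379 of all genes were lower and 1507 to 1866 higher, and the Fezf2 change was -7.51 to -7.43. Of the 18 collagen calls, 13 held in all 10 of these fits. Without a filter 42 genes were tested and 21 called, among them 17 of the 18, without Col5a1 and with Col11a1, Col24a1, Col4a3 and Col6a5 added. Without probe sets that bear a suffix for shared sequence, 31 genes were tested and 16 called. Col20a1 was then not called and Col22a1 was, while Col17a1 and Col6a2 had no probe set left to test. With the presence of Xist, the transcript of the inactive X chromosome, as a block, Col5a1 and Col6a1 were not called. Col6a4 passed the threshold with WT 1 and KO 6 left out or blocked, without WT 1 and with array weights, Col22a1 without KO 9, and Col9a3 with array weights. The causes of these shifts were not tested. No paired analysis was possible because the labels give nothing that links a WT array to a KO array. Signals near the 40th percentile limit the test of dim genes such as Col9a2 and Col10a1.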

Other observations

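Several collagen genes lie beside each other in the mouse gene order, and the neighbours did not always move together. Col9a1 and Col19a1 are adjacent on chromosome 1 and both were lower in KO cells, with log2 changes of -0.44 and -0.97. Col6a2 and Col6a1 on chromosome 10, with 2 annotated genes between them, were both lower, with -0.41 and -0.53, though each call was lost without some arrays. Col3a1 and Col5a2 are adjacent on chromosome 1 as well, and there Col5a2 was lower (-1.42) while Col3a1 was at 491 ± 119 in WT and 501 ± 90.0 in KO, a change of 0.04 that did not pass the test.

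Of 5 markers of cortical thymic epithelium, 40% were higher and 20% lower in KO cells, beside 13.0% and 16.2% of all genes. Ctsl, the cathepsin of cortical cells, was higher by 0.89 (adjusted p = 0.000151) and Enpep, the aminopeptidase also known as Ly51, by 0.82 (adjusted p = 1.73e-05). Ly75 was lower (-0.49, adjusted p = 0.0229), a call lost without WT 4 or WT 5 (adjusted p 0.0583 to 0.0607), and the proteasome subunit Psmb11 and the protease Prss16 did not pass the test. The summed cortical signals were 5248 to 8870 in WT and 11211 to 13895 in KO, but Ctsl carried 83.1% of the difference, and without it the sums overlapped, at 1359 to 2780.5 and 1981 to 3623. Of 5 leukocyte markers, Itgam was higher (0.47, adjusted p = 0.0106) and Cd52 lower (-0.43, adjusted p = 0.0421), the latter not in 8 of the 10 fits without 1 array, all but those without WT 5 or KO 6 (otherwise adjusted p 0.0523 to 0.101). Ptprc, Cd3e and Cd4 did not pass the test, so that 20% were higher and 20% lower, beside 13.0% and 16.2% of all genes. Without Cd52, which made up 95.3% of the leukocyte sum in WT, the sums were 345 to 442 in WT and 315 to 438 in KO. The part of these cells in the collagen signals was not tested.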
